A study of Mus musculus with 24 samples.

Results

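The genes described here serve the uptake of dying cells, called efferocytosis. They are 10 genes of the mouse: the bridging molecules Mfge8, Gas6 and Pros1, the receptors Mertk, Axl, Itgav, Itgb5, Stab1 and Timd4, and the engulfment adaptor Elmo1. They were chosen by name, with earlier results of these data known, and all 10 were found among the 43430 genes of the deposited count table. The libraries were made from RNA of sorted alveolar macrophages, the phagocytes of the lung's air sacs, of C57BL/6J mice. Young mice were 8 to 12 weeks old and old mice over 18 months old, and each age was sampled either naive or 28 days after asbestos, a mineral fibre used to cause lung fibrosis. Siglec F is a surface lectin of alveolar macrophages, and cells were sorted as Siglec F-high or Siglec F-low, called F-high and F-low from here on. The 6 groups of 4 libraries each were young naive F-high, old naive F-high, young asbestos F-high, old asbestos F-high, young asbestos F-low and old asbestos F-low. A naive F-low group was not analysed here, so F-low cells are compared with F-high cells of mice that had also received asbestos. The labels do not say whether replicates came from separate or pooled mice, or whether an F-high and an F-low library shared animals, so p-values measure only the spread between these libraries.

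Dying cells expose the lipid phosphatidylserine, and macrophages recognise it either directly or through a soluble bridge. Mfge8 bridges to integrins built from the Itgav chain paired with Itgb5 or Itgb3. Gas6 bridges to the receptor tyrosine kinases Axl and Mertk, and Pros1 (protein S) to Mertk. Stab1 (stabilin-1) and Timd4 (Tim-4) bind phosphatidylserine without a bridge, and Elmo1 works with Dock proteins to activate Rac1, which drives the cup that engulfs the corpse. In the lung, alveolar macrophages are known for high Axl and Mertk, and Mfge8 is also known for clearing collagen from fibrotic tissue.

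Among the 24 libraries, 22 held 13423080 to 18124526 counts and 17069 to 18820 genes with a count. The other 2 stood apart and were both replicate 3 of an asbestos F-high group. The young one had 11889517 counts over only 12528 genes and a correlation of 0.865 with its fellow replicates, and the old one had 3894699 counts, of which 35.6% came from the single gene Gm42418. In the 22 libraries, that share was 0.136% to 0.357%, and each correlated at 0.971 to 0.993 with its fellow replicates. Tests of the 10 genes were therefore run with 24 libraries and with the 22 left after dropping this pair, and both are given where they differ in a call. Levels are CPM, counts relative to library size, scaled by the trimmed mean of M values (TMM), and a gene was called where the adjusted p of edgeR's quasi-likelihood test was under 0.05. Differences are log2 fold changes with their standard error (SE).

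All 10 genes are protein coding in the GENCODE M21 annotation of GRCm38, the build of the deposited counts. Mfge8 lies on chromosome 7 from 79133768 to 79149060 on the minus strand, and Axl lies on the same chromosome from 25757273 to 25788705. Gas6 is on chromosome 8 from 13465374 to 13494490, and Stab1 on chromosome 14 from 31139013 to 31168641. The 250 bases before the RefSeq start site are shown for these 4 genes because Mfge8, Gas6 and Stab1 were called higher in F-low cells of both ages with 22 libraries, and Axl is the most abundant and was lower there. They are written 5′ to 3′ on the gene's minus strand of GRCm38.p6, with matches to the motifs searched in capitals.
Mfge8, chr7:79149061-79149310: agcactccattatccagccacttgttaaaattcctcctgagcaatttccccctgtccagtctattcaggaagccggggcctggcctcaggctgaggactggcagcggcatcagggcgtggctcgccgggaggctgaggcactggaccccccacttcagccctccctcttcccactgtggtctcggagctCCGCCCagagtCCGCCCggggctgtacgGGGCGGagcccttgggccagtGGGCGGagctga
Gas6, chr8:13494536-13494785: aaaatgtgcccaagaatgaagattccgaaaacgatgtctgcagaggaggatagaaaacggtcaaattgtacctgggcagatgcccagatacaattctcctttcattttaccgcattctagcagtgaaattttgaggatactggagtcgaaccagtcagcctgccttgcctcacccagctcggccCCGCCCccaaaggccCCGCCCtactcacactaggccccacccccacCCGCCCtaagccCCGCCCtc
Stab1, chr14:31168642-31168891: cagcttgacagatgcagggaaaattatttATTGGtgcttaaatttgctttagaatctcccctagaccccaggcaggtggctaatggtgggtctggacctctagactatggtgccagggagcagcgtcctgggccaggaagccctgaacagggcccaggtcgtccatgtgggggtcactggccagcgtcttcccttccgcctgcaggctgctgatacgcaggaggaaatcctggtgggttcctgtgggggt
Axl, chr7:25788734-25788983: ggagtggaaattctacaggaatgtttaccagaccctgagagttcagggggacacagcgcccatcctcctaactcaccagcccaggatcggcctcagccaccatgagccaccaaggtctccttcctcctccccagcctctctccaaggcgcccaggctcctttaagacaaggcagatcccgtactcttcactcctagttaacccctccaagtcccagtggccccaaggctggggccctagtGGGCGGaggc
The GC box GGGCGG, searched on both strands, occurred 4 times before Mfge8, 4 times before Gas6 and 1 time before Axl, and 32.7% of 32851 mouse promoter windows of the same length held it. Stab1 had no GC box and 1 CCAAT box, which 33.8% of windows held. Over all 10 genes, 7 had a GC box, 2 a CCAAT box (Stab1 and Timd4), 1 a TATAAA box (Elmo1, against 12.4% of windows) and 1 the PU.1 core GAGGAAGT (Itgav, against 2.44%). PU.1 is a transcription factor of macrophages. Neither the AP-1 letters TGANTCA, held by 6.75% of windows, nor the E-box CACGTG, held by 6.02%, occurred in any of the windows of the 10 genes. These are matches of letters and not bound sites, and Mfge8, Gas6 and Stab1 had no motif of those searched in common.

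Levels were first set side by side per length, as CPM per kb of exon averaged over the 24 libraries. Axl was the most abundant at 388 CPM per kb, followed by Mertk at 108, Pros1 at 85.7, Itgb5 at 65.6 and Mfge8 at 56.4. Elmo1 (5.94) and Itgav (5.36) were next, and Gas6 (0.783), Stab1 (0.438) and Timd4 (0.171) were under 1 CPM per kb. The alveolar macrophages thus carried abundant mRNA for both receptor kinases and for the Mertk ligand Pros1. They carried little for Gas6, the ligand of both kinases. The position of Mfge8 in this order depended on the group. The highest group mean was 62.2 times the lowest for Mfge8, against 1.26 to 1.47 times for Pros1, Mertk, Axl, Itgav, Itgb5 and Elmo1, 5.19 times for Gas6 and 4.68 times for Stab1, both at low levels.

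**Figure D1:**
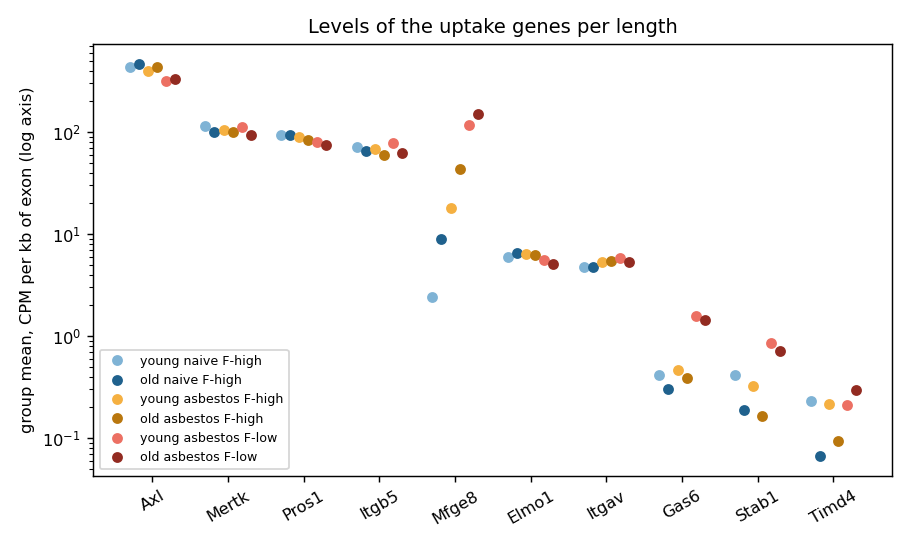
Group means of the 10 genes in CPM per kb of exon (log axis, 22 libraries), with each gene on the horizontal axis and 1 point per group. The points of Axl, Mertk, Pros1, Itgb5, Elmo1 and Itgav lie close together, whereas those of Mfge8 spread over a 62.2-fold range.

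Calls were few in most comparisons and are given here against the share of all tested genes called by the same rule. Between old and young naive F-high cells, 1 of 10 genes was called with 24 libraries (2.03% of all genes) and 2 of 10 with 22 libraries (8.03%). Between old and young asbestos F-high cells the counts were 1 (4.76%) and 2 (7.32%). In asbestos F-low cells they were 0 (1.29%) and 1 (7.21%) between the ages. That 0 of edgeR stood beside 1 gene, Itgb5, with an unadjusted p under 0.05, and DESeq2 also called 0. The response of F-high cells to asbestos gave 1 call in young mice with either set of libraries (1.90% and 5.06%) and 1 in old mice (0.780% and 4.12%), and the gene was Mfge8 each time. F-low against F-high cells gave the most calls, 2 of 10 with 24 libraries (4.99%) and 5 with 22 (12.0%) in young mice, and 3 (4.30%) and 5 (11.6%) in old mice. Whether a response differed between the ages was tested as an interaction, and edgeR called 0 of the 10 genes. For the asbestos response the background was 0% with 24 and 0.0147% with 22 libraries, and for the F-low against F-high difference it was also 0% and 0.0147%. Without adjustment, Mfge8 was the only gene of the 10 under 0.05, in the asbestos response with both sets and in the F-low against F-high difference with 22 libraries. DESeq2, run on 24 libraries, called 0 of the 10 in both interactions. The median log2 difference of the 10 genes in the 7 comparisons of 2 groups ran from -0.13 to 0.24 with 24 libraries and from -0.12 to 0.11 with 22, and that of all tested genes from -0.01 to 0.04 and from -0.01 to 0.01.

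**Figure D2:**
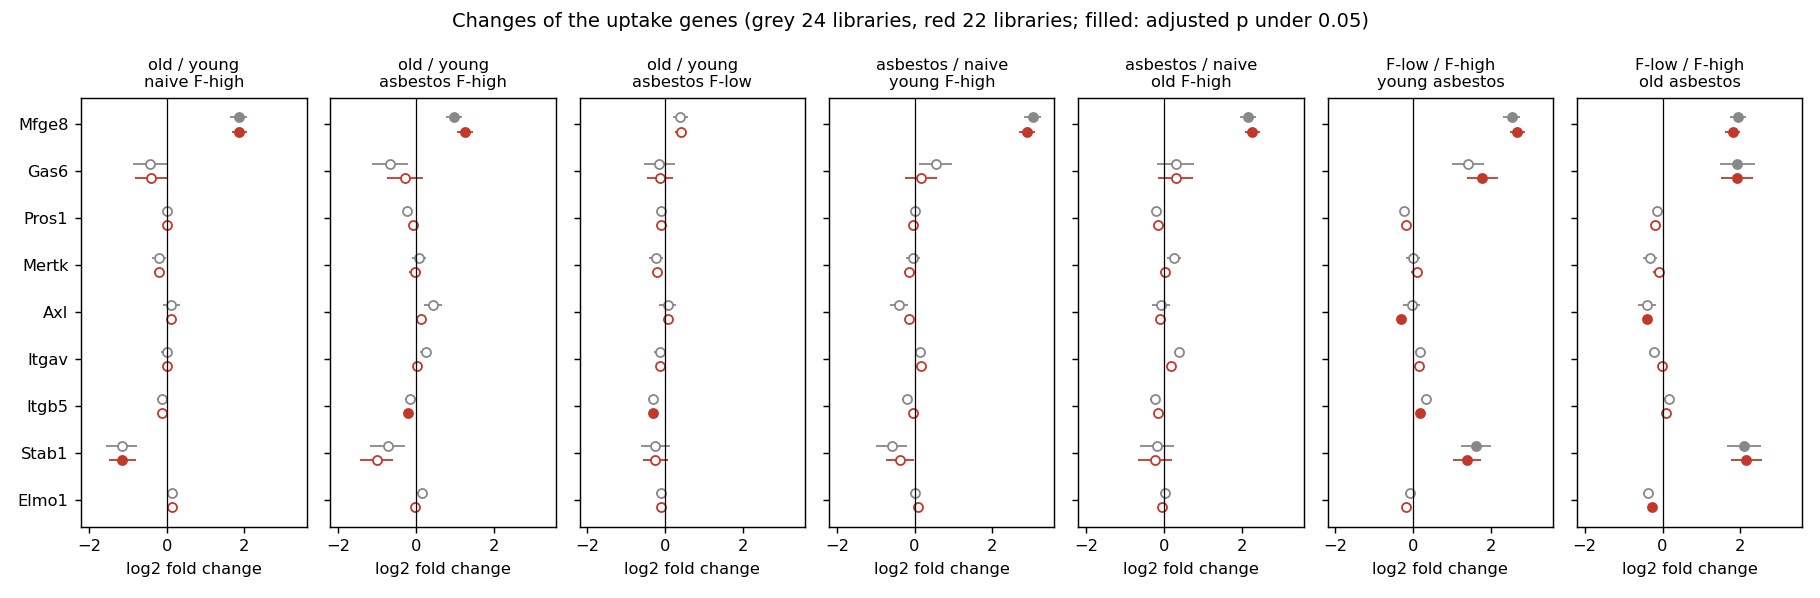
Log2 fold change with its SE (horizontal axis) of 9 genes in the 7 comparisons of 2 groups, with 24 libraries in grey and 22 in red, filled where the adjusted p was under 0.05. Timd4 is left out because its counts were at or near 0. Mfge8 is filled in 6 of the 7 panels, and Gas6 and Stab1 lie to the right in both F-low against F-high panels.

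Mfge8, the bridge to the Itgav integrins, was lowest in young naive macrophages and higher with age, after asbestos and in F-low cells. The 4 young naive libraries had 13.2, 12.2, 10.6 and 9.86 CPM, and the 4 old naive libraries had 39.2, 38.2, 36.1 and 53.2 CPM. After asbestos, young F-high libraries had 114, 62.6, 123 and 78.9 CPM and old F-high libraries 189, 175, 136 and 242 CPM, where the third value of each is the outlying library. Young F-low libraries had 573, 552, 545 and 507 CPM, and old F-low libraries 745, 518, 648 and 939 CPM. Put in order of their means, neighbouring groups did not overlap in any library except the F-low groups of the 2 ages, and this held with 24 and with 22 libraries. The group means were 11.5 ± 1.52, 41.7 ± 7.77, 94.5 ± 28.5, 185 ± 43.9, 544 ± 27.3 and 713 ± 177 CPM (SD, n = 4). Without the outlying pair, the F-high means after asbestos were 85.1 ± 26.1 CPM in young and 202 ± 35.2 CPM in old mice (SD, n = 3).

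**Figure D3:**
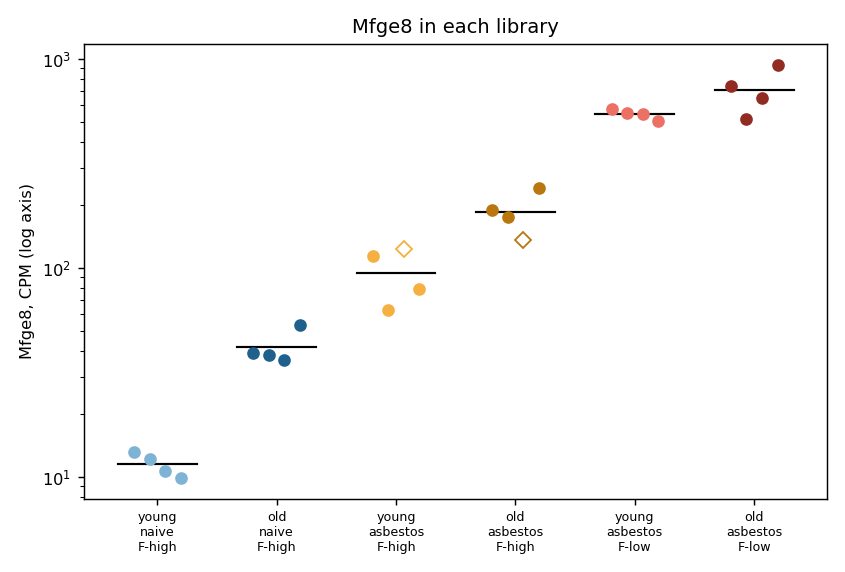
Mfge8 in CPM (log axis) in each of the 24 libraries by group; bars are group means and open diamonds the 2 outlying libraries. The young naive libraries sit between 9.86 and 13.2 CPM and the F-low libraries between 507 and 939 CPM.

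Mfge8 was higher in old than in young naive F-high cells by 1.86 ± 0.22 on the log2 scale (3.63-fold), with an adjusted p of 7.39e-06 in edgeR. In asbestos F-high cells it was higher in old mice by 0.98 ± 0.21 (1.97-fold, adjusted p = 0.00801 in edgeR) with 24 libraries and by 1.26 ± 0.20 (adjusted p = 0.000252) with 22. That call was lost when only the libraries of these 2 groups entered the fit (adjusted p = 0.476), a fit that held both outlying libraries. In F-low cells the difference between the ages was 0.39 ± 0.20 (adjusted p = 0.707) with 24 libraries and 0.40 ± 0.16 (adjusted p = 0.163) with 22, so it was not called. After asbestos Mfge8 was higher in F-high cells by 3.04 ± 0.22 (8.24-fold, adjusted p = 4.50e-08) in young mice and by 2.16 ± 0.21 (4.47-fold, adjusted p = 3.32e-06) in old mice. F-low cells held more than F-high cells, by 2.53 ± 0.22 (5.76-fold, adjusted p = 1.63e-07) in young mice and 1.94 ± 0.21 (3.82-fold, adjusted p = 6.96e-06) in old mice. With 22 libraries the age difference in naive cells was 1.87 ± 0.19 (adjusted p = 4.30e-07 in edgeR). The asbestos differences with 22 were 2.89 ± 0.20 in young and 2.28 ± 0.19 in old mice (adjusted p = 9.13e-09 and 8.55e-08 in edgeR), and those of F-low against F-high 2.68 ± 0.20 and 1.81 ± 0.19 (adjusted p = 5.56e-09 and 9.83e-07). On the log2 scale both responses were larger in young mice as point estimates, from lower starting means. These were 11.5 against 41.7 CPM in young and old naive cells, and 94.5 against 185 CPM in asbestos F-high cells. The asbestos response of old mice minus that of young mice was -0.88 ± 0.29 with 24 libraries and -0.61 ± 0.27 with 22 (unadjusted p = 0.00653 and 0.0343, adjusted p = 0.587 and 0.956 in edgeR). The same difference for F-low against F-high was -0.59 ± 0.29 and -0.86 ± 0.25 (unadjusted p = 0.0526 and 0.00264, adjusted p = 0.761 and 0.464 in edgeR). These sorted samples are bulk RNA, so more cells that make Mfge8 and more Mfge8 mRNA in each cell cannot be told apart.

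The summed level of monocyte-derived macrophage markers was also higher in the groups with more Mfge8, though not every marker was. The summed level of the 9 markers of that list was 413 to 564 CPM in young naive and 628 to 1083 CPM in old naive libraries. In the 22 libraries it was 776 to 1103 CPM and 1357 to 1513 CPM in young and old asbestos F-high cells, and 3502 to 5815 CPM and 4497 to 4943 CPM in young and old F-low cells. The sum was mostly Spp1, Apoe and Mmp12. With age and 22 libraries, only Spp1 and Mmp12 were called higher in naive F-high cells (8.03% of all genes called). In asbestos F-high cells Mmp12 was higher and Apoe lower (7.32%). In F-low cells C1qa, C1qb, C1qc, Ccr2 and Cx3cr1 were higher, 5 of 9 (7.21%), and none was called there with 24 libraries (1.29%). Mean Apoe was 104 and 77.8 CPM in young and old naive cells, and 109 and 63.3 CPM in young and old asbestos F-high cells. Mean C1qa was 3.99 and 2.57 CPM, and 5.68 and 4.08 CPM, in the same order. None of the 9 was at 0 in any group, and 8 of 9, Apoe, Cx3cr1, Mmp12, C1qa, C1qb, C1qc, Spp1 and Ms4a7, were higher in F-low than in F-high cells in both ages with 22 libraries (6 in young and 8 in old mice with 24). The share of all genes called there was 12.0% in young and 11.6% in old mice with 22 libraries, and 4.99% and 4.30% with 24. Of 10 markers of resident alveolar macrophages, Siglecf, Cidec, Fabp1, Krt79 and Ear1 were lower in F-low cells in both ages and Ear2 in old mice with 22 libraries, whereas Chil3 was higher. The sum of these 10, mostly Chil3, was also higher after asbestos and in F-low cells. It was 14316 to 19719 CPM in young naive and 15799 to 18158 CPM in old naive libraries. In the 22 libraries it was 22514 to 26155 CPM and 34237 to 39129 CPM in young and old asbestos F-high cells. In young and old F-low cells it was 34199 to 45761 CPM and 50281 to 64343 CPM. All 10 were detected in every group, F-high and F-low, as the label of alveolar macrophages requires. Mean Siglecf itself was 456 CPM in young and 466 CPM in old F-high cells after asbestos, and 265 and 173 CPM in the F-low cells. The part of this shift in markers in the Mfge8 result was not tested.

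Markers of other cell types that the sorts could hold were present at differing levels. For scale, Gas6 ran from 0.442 to 6.05 CPM and Stab1 from 1.16 to 13.3 CPM over the 24 libraries. Summed over their lists, fibroblast markers reached at most 11.7 CPM in any library, endothelial markers 8.98, interstitial or serosal macrophage markers 19.8, T cell markers 22.8, neutrophil markers 43.4 and dendritic cell markers 44.0 CPM. Epithelial markers summed to 168 to 386 CPM and B cell markers to 24.8 to 292 CPM. With 22 libraries the epithelial sum was mostly Epcam and Cdh1, with group means of 24.9 to 172 CPM and 94.4 to 227 CPM. Krt8 and Krt18 of the same list had means of 0.0179 to 0.240 CPM and 0.0968 to 0.190 CPM. Ighm had the highest mean of the B cell list in every group, from 16.6 to 168 CPM. The defining markers Ly6g (neutrophils), Dcn and Lum (fibroblasts) were at 0 in both naive groups. With 22 libraries, Dcn had means of 0.0536 and 0.243 CPM in young and old asbestos F-high cells, and 0.103 and 0.204 CPM in F-low cells. Fibroblast sums were 0.191 to 2.87 CPM in young naive and 0.166 to 1.46 CPM in old naive libraries. In young and old asbestos F-high libraries they were 1.09 to 2.25 CPM and 0.117 to 11.7 CPM with 22 libraries. F-low libraries had 1.48 to 10.5 CPM in young and 2.80 to 8.69 CPM in old mice. B cell markers were lower after asbestos in F-high cells, 6 of 7 in young and 3 of 7 in old mice with 22 libraries, and 3 and 0 with 24 in edgeR. Of all genes, 5.06% and 4.12% were called in these comparisons with 22 libraries, and 1.90% and 0.780% with 24. Ighm, the immunoglobulin heavy chain of B cells, was called higher in old mice in all 3 age comparisons with both sets, with means of 35.2 and 168 CPM in young and old naive cells. The neutrophil marker S100a8 was called higher in old mice in both F-high age comparisons with 22 libraries, with means of 3.22 and 10.7 CPM in naive and 6.55 and 16.2 CPM in asbestos cells. Of the same list, S100a9 had F-high group means of 0.0497 to 1.41 CPM and Retnlg of 1.58 to 3.30 CPM with 22 libraries. Ngp had 0.0201 to 0.0582 CPM and Mpo 0 to 0.0250 CPM there, and Ly6g was at 0. Whether other cell types had a part in the results was not tested.

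Gas6, the ligand of Axl and Mertk, was scarce in F-high cells and higher in F-low cells. Young and old naive libraries had 0.566, 1.59, 0.583 and 1.46 CPM and 1.11, 0.898, 0.442 and 0.651 CPM. After asbestos, young F-high libraries had 1.07, 1.19, 2.71 and 1.25 CPM and old F-high libraries 0.723, 0.469, 0.817 and 1.75 CPM. F-low libraries had 3.10, 6.05, 3.96 and 2.97 CPM in young and 4.06, 3.33, 3.68 and 3.47 CPM in old mice. Every F-low library was above every F-high library, and the 4 F-high groups overlapped. In old mice F-low cells held more by 1.92 ± 0.45 on the log2 scale (3.79-fold, adjusted p = 0.0152 in edgeR), and by 1.92 ± 0.41 (adjusted p = 0.00289) with 22 libraries. The call with 24 libraries was lost without old asbestos F-high replicate 1 or without replicate 2 (adjusted p up to 0.0683). In young mice the difference was 1.40 ± 0.41 (adjusted p = 0.0503), just short of a call, and 1.78 ± 0.39 (adjusted p = 0.00361) with 22 libraries. The highest young F-high value, 2.71 CPM, belonged to the outlying library. Age and asbestos gave no call for Gas6 in F-high cells with either set. Gas6 overlaps Tmem255b on the opposite strand, and the strand setting of the counting is not given in the sources used here.

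Pros1, the other ligand of Mertk, was abundant and nearly level. Its 24 libraries ran from 281 to 437 CPM with a median of 350.2 CPM. Group means fell between 302 ± 14.9 CPM in old F-low and 385 ± 35.0 CPM in young asbestos F-high cells (SD, n = 4), with 379.7 and 380.5 CPM in the young and old naive groups. Pros1 was called in no comparison with either set. Its largest differences with 22 libraries were F-low against F-high, -0.18 ± 0.08 in young mice (adjusted p = 0.175 in edgeR) and -0.20 ± 0.08 in old mice (adjusted p = 0.136), and in both ages the F-low and F-high libraries did not overlap. The bridging molecules thus went different ways, with large changes of Mfge8, an F-low increase of Gas6 from a low level, and no called change of Pros1.

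Mertk, a receptor for Gas6 and Pros1, was called in no comparison with either set. Its libraries ran from 311 to 745 CPM with a median of 467 CPM, and the highest was the outlying old asbestos F-high library. In the 22 libraries the range was 311 to 551 CPM, and group means lay between 410.1 ± 83.9 CPM in old F-low and 492 ± 69.5 CPM in young naive cells (SD, n = 4). Neighbouring groups all overlapped. The largest difference with 22 libraries was between old and young F-low cells, -0.22 ± 0.13 with an unadjusted p of 0.101 in edgeR. Mertk overlaps the antisense gene Gm14011, whose reads cannot be told apart from its own if strand was not used.

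Axl, the receptor that binds Gas6, was the most abundant of the 10 and was slightly lower in F-low than in F-high cells once the outlying pair was left out. Naive libraries had 2406, 2119, 2102 and 2084 CPM in young and 2395, 2207, 2480.3 and 2357 CPM in old mice. After asbestos, young F-high libraries had 1842, 2014, 606 and 2142 CPM and old F-high libraries 2305, 2093, 2389.6 and 2167 CPM. F-low libraries had 1524, 1555, 1650.2 and 1672 CPM in young and 1724, 1822, 1701 and 1483 CPM in old mice. The 606 CPM of the outlying young library was below all F-low values, and the other F-high libraries of both ages all lay above the highest F-low value, 1822 CPM. With 24 libraries the difference F-low against F-high was -0.04 ± 0.22 (adjusted p = 0.934 in edgeR) in young and -0.41 ± 0.23 (adjusted p = 0.409) in old mice. With 22 libraries Axl fell by 0.32 ± 0.07 (adjusted p = 0.00542) in young and by 0.39 ± 0.07 (adjusted p = 0.00119) in old mice, where log2 values of -0.32 and -0.39 correspond to ratios of 0.800 and 0.766. The young call was lost without young asbestos F-high replicate 4 (adjusted p = 0.0627). Neither age nor asbestos gave a call for Axl.

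**Figure D4:**
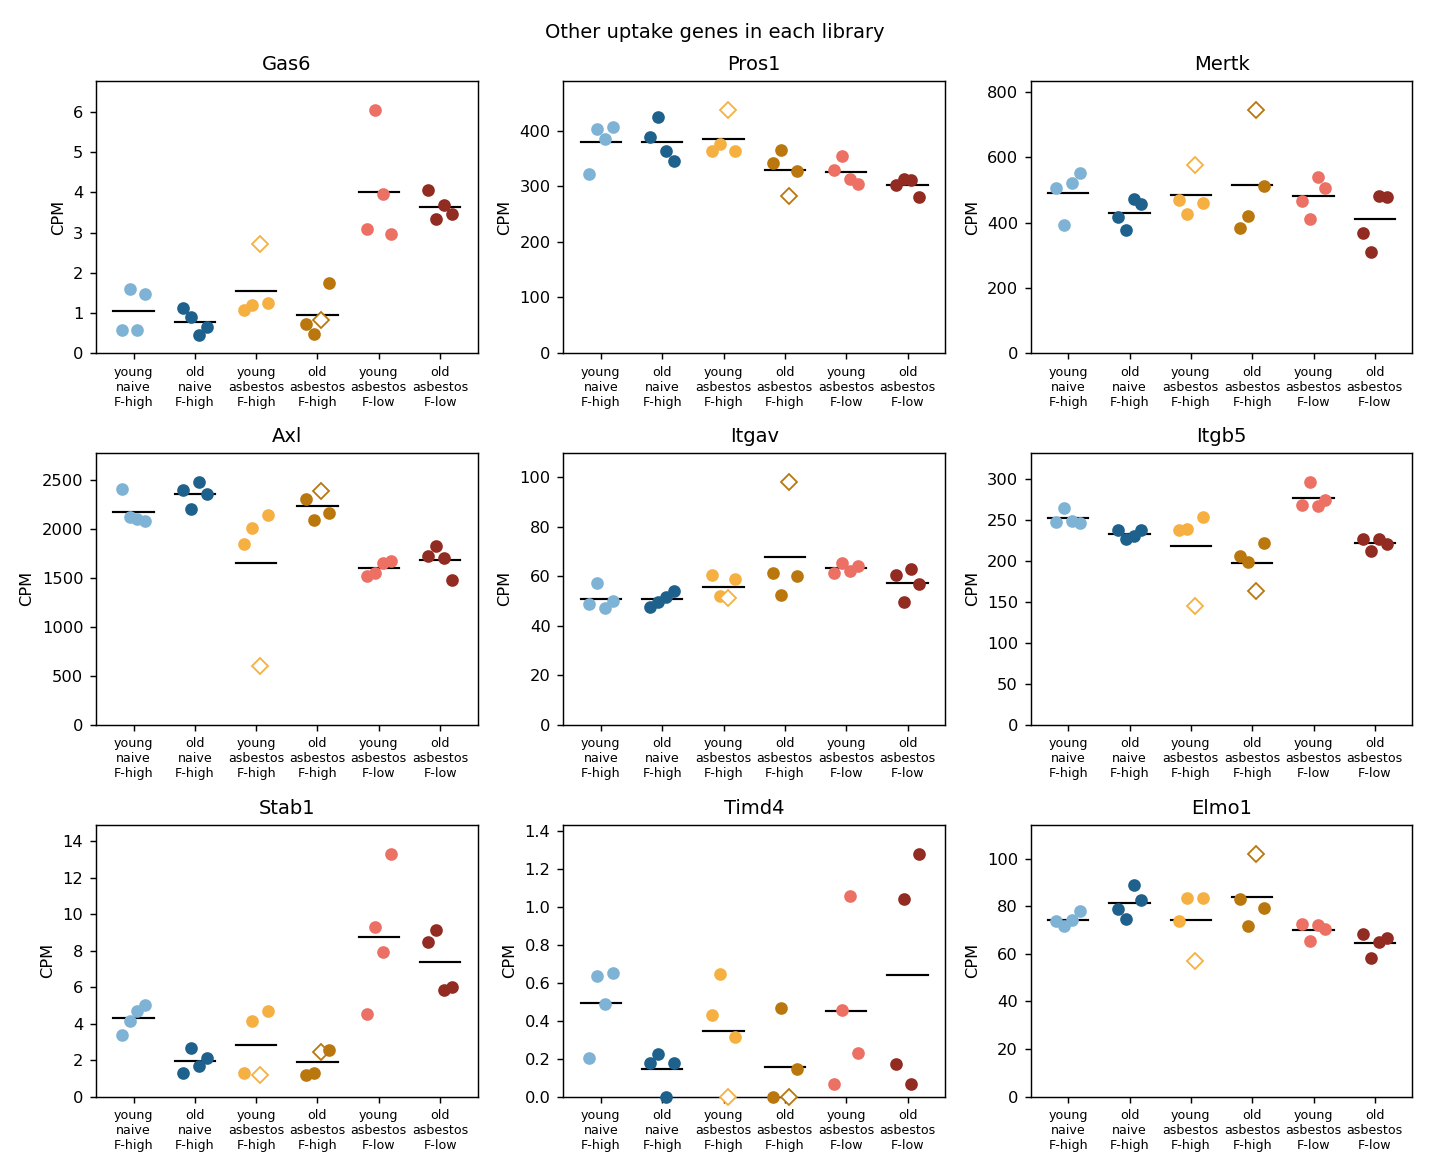
The other 9 genes in CPM (linear axis) in each of the 24 libraries by group; bars are group means and open diamonds the 2 outlying libraries. Gas6 is at 2.97 CPM or more in every F-low library, and the outlying young asbestos F-high library stands alone for Axl at 606 CPM and Itgb5 at 145 CPM.

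Itgav, the shared chain of the integrins that bind Mfge8, was called in no comparison. Its 22 libraries ran from 47.2 to 65.4 CPM, and the outlying old library was above all of them. The largest difference with 22 libraries was asbestos against naive in old F-high cells, 0.19 ± 0.09 (adjusted p = 0.247 in edgeR), against 0.39 ± 0.14 (adjusted p = 0.317) with 24. While Mfge8 differed 62.2-fold between group means, Itgav differed 1.25-fold over the 22 libraries. Itgav overlaps Dnmt3l-ps1 and Gm13684 on the opposite strand.

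Itgb5, the partner of Itgav, showed small differences that were not called with 24 libraries and were called with 22. Its F-low libraries had 268, 296, 267 and 274 CPM in young and 227, 212, 226 and 220.3 CPM in old mice, which did not overlap. Young asbestos F-high libraries had 237, 239, 145 and 253 CPM and old ones 206, 199, 163 and 222 CPM, with the outlying library lowest in both. Naive libraries had 247, 264, 249 and 246 CPM in young and 237, 226, 230.2 and 238 CPM in old mice. In F-low cells Itgb5 was lower in old mice by a log2 value of -0.31 ± 0.05 with 22 libraries (ratio 0.805, adjusted p = 0.000654 in edgeR), a call kept without each of the 22 libraries in turn. With 24 libraries the same difference was -0.32 ± 0.13 (adjusted p = 0.391). In asbestos F-high cells the age difference was -0.21 ± 0.06 (adjusted p = 0.0457) with 22 libraries, but the call was lost in 16 of 22 fits that each left out a library. In young mice F-low cells exceeded F-high cells by 0.18 ± 0.06 (adjusted p = 0.0403) with 22 libraries, lost in 4 of 22 such fits. With 24 libraries neither was called (adjusted p = 0.496 and 0.129). Dropping young asbestos F-high replicate 3 alone also gave the age calls in F-low and in asbestos F-high cells, and the F-low age call was also gained when only the libraries of those groups were fitted.

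Stab1, a scavenger receptor that binds phosphatidylserine directly, was low and was higher in F-low cells. Young and old naive libraries had 3.35, 4.14, 4.71 and 5.04 CPM and 1.28, 2.69, 1.66 and 2.13 CPM, which did not overlap. After asbestos, young F-high libraries had 1.29, 4.13, 1.16 and 4.68 CPM and old F-high libraries 1.21, 1.29, 2.45 and 2.55 CPM. F-low libraries had 4.52, 9.30, 7.91 and 13.3 CPM in young and 8.46, 9.13, 5.82 and 6.02 CPM in old mice. In old mice all F-low libraries lay above all F-high libraries, whereas in young mice the lowest F-low value, 4.52 CPM, lay below the highest F-high value, 4.68 CPM. The difference was 2.09 ± 0.44 on the log2 scale (4.26-fold, adjusted p = 0.00609 in edgeR) in old mice and 1.62 ± 0.39 (3.07-fold, adjusted p = 0.0148) in young mice, and 2.15 ± 0.40 (adjusted p = 0.000776) and 1.39 ± 0.36 (adjusted p = 0.0119) with 22 libraries. The young call was lost with 24 libraries without young F-low replicate 4 or when only the libraries of the compared groups were fitted (adjusted p up to 0.312), and with 22 without young asbestos F-high replicate 1 (adjusted p = 0.0610). Old naive cells held less than young ones by a log2 value of -1.15 ± 0.40 (adjusted p = 0.214) with 24 libraries and -1.14 ± 0.35 (adjusted p = 0.0482) with 22, and the latter call was lost in 14 of 22 fits that each left out a library. Stab1 overlaps Nt5dc2 on the opposite strand.

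Timd4, the phosphatidylserine receptor of resident macrophages in the body cavities, was at or near 0. Counts were 4, 10, 10 and 12 in young naive and 3, 4, 0 and 3 in old naive libraries. They were 8, 13, 0 and 5 in young and 0, 8, 0 and 2 in old asbestos F-high libraries, and 1, 8, 18 and 4 in young and 3, 16, 1 and 21 in old F-low libraries. The highest level was 1.28 CPM. A count of 0 allows up to 3 counts per library, and several libraries were at or below that, so no fold change is given. Timd4 was called in no comparison with either set, and differences at this depth were not detectable.

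Elmo1, the engulfment adaptor, ran from 58.2 to 88.7 CPM over the 22 libraries. F-high libraries after asbestos had 73.8, 83.3, 57.0 and 83.3 CPM in young and 82.8, 71.7, 102 and 79.3 CPM in old mice, and F-low libraries had 72.7, 65.2, 72.1 and 70.6 CPM and 68.2, 58.2, 65.1 and 66.6 CPM. In old mice the F-low libraries all lay below the F-high libraries. The log2 difference there was -0.37 ± 0.12 (adjusted p = 0.0871 in edgeR) with 24 libraries and -0.28 ± 0.07 (adjusted p = 0.0163) with 22, and the latter call was lost in 3 of 22 fits that each left out a library. In young mice it was -0.19 ± 0.07 (adjusted p = 0.0977) with 22. With the replicate block and 22 libraries that young difference was called (adjusted p = 0.0304 in edgeR). Without the block, Elmo1 was called in no other comparison with 24 or 22 libraries.

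The rest of the uptake pathway was followed in 50 other genes, of which 43 were tested. The 7 not tested for low counts were Tyro3, the third receptor kinase of the Axl and Mertk family, Havcr1, Adgrb1, Megf10, Itgb8, Gulp1 and Bcar1. In F-low against F-high cells, 10 were higher and 1 lower in young mice and 5 were higher and 5 lower in old mice with 22 libraries, beside 12.0% and 11.6% of all genes called. With 24 libraries they were 6 and 0, and 2 and 2, beside 4.99% and 4.30%. The median log2 difference of the 43 was -0.02 and 0.02 in young and old mice with 22 libraries, beside 0.00 and -0.01 over all tested genes. Asbestos gave 2 higher and 1 lower in young and 3 higher and 3 lower in old F-high cells with 22 libraries (5.06% and 4.12% of all genes), and 1 and 1, and 0 and 0, with 24 in edgeR (1.90% and 0.780%). Old mice differed from young mice in 7 higher and 1 lower in naive F-high, 6 higher and 0 lower in asbestos F-high, and 2 higher and 2 lower in F-low cells with 22 libraries, beside 8.03%, 7.32% and 7.21% of all genes. With 24 libraries they were 1 and 0, 2 and 0, and 0 and 0 in edgeR, beside 2.03%, 4.76% and 1.29%.

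Of 11 tested receptors and bridging molecules outside the 10, Itgb3, Cd36, Calr and Cd300a were higher in F-low cells in both ages with 22 libraries. Cd300lb was called higher in young mice, and none of the 11 was called lower. The counts were 5 in young and 4 in old mice (12.0% and 11.6% of all genes), and 3 and 2 with 24 libraries (4.99% and 4.30%). Itgb3, the other partner of Itgav in binding Mfge8, was at 1.99 ± 0.283 CPM in young F-high (SD, n = 3) and 7.37 ± 1.41 CPM in young F-low cells (SD, n = 4). In old mice it was at 2.62 ± 0.716 and 14.4 ± 5.43 CPM. The log2 differences were 1.89 ± 0.29 (adjusted p = 0.000102 in edgeR) and 2.45 ± 0.28 (adjusted p = 3.46e-06), and both were called with 24 libraries (adjusted p = 0.000705 and 4.23e-05). Between old and young F-low cells Itgb3 was higher by 0.97 ± 0.23 (adjusted p = 0.0110 in edgeR with 22 libraries, 0.0945 with 24). Over the same F-low against F-high contrasts with 22 libraries, Itgav differed by 0.14 ± 0.09 and -0.01 ± 0.09 in young and old mice, and Itgb5 by 0.18 ± 0.06 and 0.08 ± 0.06. Cd36, a scavenger receptor for oxidised lipids, was at 413 ± 91.9 and 740.0 ± 113 CPM in young F-high and F-low cells, a difference of 0.84 ± 0.13 (adjusted p = 0.000161 in edgeR), and at 586 ± 59.7 and 936 ± 129.6 CPM in old mice, 0.67 ± 0.13 (adjusted p = 0.00150). Both Cd36 calls were also made with 24 libraries (adjusted p = 0.00432 and 0.0485 in edgeR), whereas Calr was called in neither age there (adjusted p = 0.145 and 0.0789). Cd300a, an inhibitory receptor that binds phosphatidylserine, was higher by 1.28 ± 0.18 in young F-low cells (adjusted p = 5.08e-05 in edgeR with 22 libraries, 0.116 with 24) and by 0.97 ± 0.19 in old against young asbestos F-high cells (adjusted p = 0.00283, 0.466 with 24). Cd300lb, of the same family, was higher in old mice in naive F-high cells by 0.67 ± 0.17 (adjusted p = 0.0149 in edgeR) and in asbestos F-high cells by 1.08 ± 0.20 (adjusted p = 0.00182) with 22 libraries, and the latter was called with 24 (adjusted p = 0.00723). In F-low cells the age difference was 0.60 ± 0.17 (adjusted p = 0.0305 in edgeR, 0.297 with 24), and after asbestos Cd300lb was lower in young F-high cells by -0.72 ± 0.19 (adjusted p = 0.0305, 0.0448 with 24). After asbestos in old F-high cells, Cd36, Cd300lf and Cd300a were higher by 0.70 ± 0.13, 0.39 ± 0.10 and 0.66 ± 0.18 with 22 libraries (adjusted p = 0.00257, 0.0219 and 0.0353 in edgeR), none of which was called with 24.

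Among 13 tested engulfment signalling genes, Src, Ptk2 and Vav3 were higher in young F-low cells with both sets, and none was called lower there. These 3 calls stood beside 12.0% of all genes called with 22 libraries and 4.99% with 24. In old mice 1 was higher and 1 lower with 22 libraries (11.6%), and 0 and 0 with 24 (4.30%). Src, a kinase that relays integrin signals, was at 5.32 ± 1.30 CPM in young and 14.2 ± 4.92 CPM in old naive cells (SD, n = 4), and at 3.62 ± 0.542 and 20.5 ± 10.3 CPM in young and old asbestos F-high cells (SD, n = 3). It was higher in old mice by 1.43 ± 0.27 (adjusted p = 0.00120 in edgeR) and 2.52 ± 0.32 (adjusted p = 2.21e-05), and both calls were also made with 24 libraries (adjusted p = 0.0117 and 2.72e-05). Ptk2, the focal adhesion kinase, was at 3.01 ± 0.870 CPM in old F-high and 7.42 ± 0.261 CPM in old F-low cells, 1.28 ± 0.20 higher with 22 libraries (adjusted p = 0.000106 in edgeR) but not called with 24 (adjusted p = 0.132). The Elmo1 partners Dock1, Dock2 and Rac1 were not called in the F-low against F-high comparison of either age with 22 libraries. Rhog, of the same list, was called lower in old F-low cells with 22 libraries. Its log2 difference was -0.19 ± 0.06 (adjusted p = 0.0476 in edgeR, 0.875 with 24), and -0.17 ± 0.06 in young mice (adjusted p = 0.0742 with 22).

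The third list held 13 genes of corpse digestion and lipid efflux. In young F-low against F-high cells with 22 libraries, 2 were higher and 1 lower (12.0% of all genes called). In old mice 0 were higher and 3 lower (11.6%). With 24 libraries the counts were 0 and 0, and 0 and 2 (4.99% and 4.30%). With age and 22 libraries, 4 were higher and 0 lower in naive F-high (8.03%), 2 and 0 in asbestos F-high (7.32%), and 0 and 2 in F-low cells (7.21%). None of the 13 was called with age with 24 libraries (2.03%, 4.76% and 1.29%). After asbestos with 22 libraries, 2 were higher and 0 lower in young (5.06%) and 0 higher and 2 lower in old F-high cells (4.12%). With 24 they were 1 and 0, and 0 and 0 (1.90% and 0.780%). Abca1, which exports cholesterol, was at 201 ± 15.6 CPM in old F-high (SD, n = 3) and 108 ± 12.1 CPM in old F-low cells (SD, n = 4), and fell by 0.90 ± 0.14 on the log2 scale (adjusted p = 8.92e-05 in edgeR, 0.00227 with 24 libraries). In F-low cells it was lower in old than in young mice by a log2 value of -0.83 ± 0.13 (adjusted p = 0.000232 in edgeR, 0.123 with 24). Abcg1, a second cholesterol exporter, was at 2309 ± 18.0 and 1736 ± 141 CPM in old F-high and F-low cells, a log2 value of -0.42 ± 0.07 (adjusted p = 0.000512 in edgeR, 0.0348 with 24), and -0.29 ± 0.07 in young mice (adjusted p = 0.0104, 0.637 with 24). After asbestos in old F-high cells both were lower with 22 libraries, Abca1 by -0.58 ± 0.14 and Abcg1 by -0.31 ± 0.08 (adjusted p = 0.0178 and 0.0214 in edgeR), and neither was called with 24. Abcg1 was also lower in old than in young F-low cells by -0.27 ± 0.07 (adjusted p = 0.0196 in edgeR, 0.796 with 24), and Lpcat3, a phospholipid-remodelling enzyme, was lower in old F-low than in old F-high cells by -0.29 ± 0.08 (adjusted p = 0.0163, 0.670 with 24). Nr1h3, the receptor LXR alpha that is known to induce both exporters, was higher after asbestos in young F-high cells by 0.47 ± 0.10 (adjusted p = 0.00717 in edgeR, 0.0474 with 24), and in young F-low against F-high cells by 0.48 ± 0.10 (adjusted p = 0.00264, 0.471 with 24). Cybb, a subunit of the phagocyte NADPH oxidase, was higher in old asbestos F-high cells by 0.66 ± 0.15 (adjusted p = 0.00655 in edgeR, 0.0627 with 24). Lipa, the lysosomal acid lipase, was at 663 ± 119 CPM in young and 970.1 ± 90.8 CPM in old naive cells, 0.55 ± 0.10 higher with 22 libraries (adjusted p = 0.00100 in edgeR, 0.357 with 24), and 0.44 ± 0.11 higher after asbestos in young F-high cells (adjusted p = 0.0179, 0.623 with 24). Among 6 brakes and receptor sheddases, Cd47, the signal against being eaten, was lower in old naive cells by a log2 value of -0.20 ± 0.06 with 22 libraries (adjusted p = 0.0313 in edgeR, 0.875 with 24). Siglecg was lower after asbestos in old F-high cells by -0.94 ± 0.25 (adjusted p = 0.0350 in edgeR, 0.133 with 24), and the sheddases of Mertk and Axl, Adam17 and Adam10, were not called in F-low against F-high cells of either age. Sirpa, of the same list, was lower in old F-low than in old F-high cells with 22 libraries. The log2 difference was -0.22 ± 0.07 (adjusted p = 0.0469 in edgeR, 0.333 with 24). Cd47, Siglecg and Sirpa were each the only call of the 6 in those comparisons with 22 libraries, beside 8.03%, 4.12% and 11.6% of all genes.

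**Figure D5:**
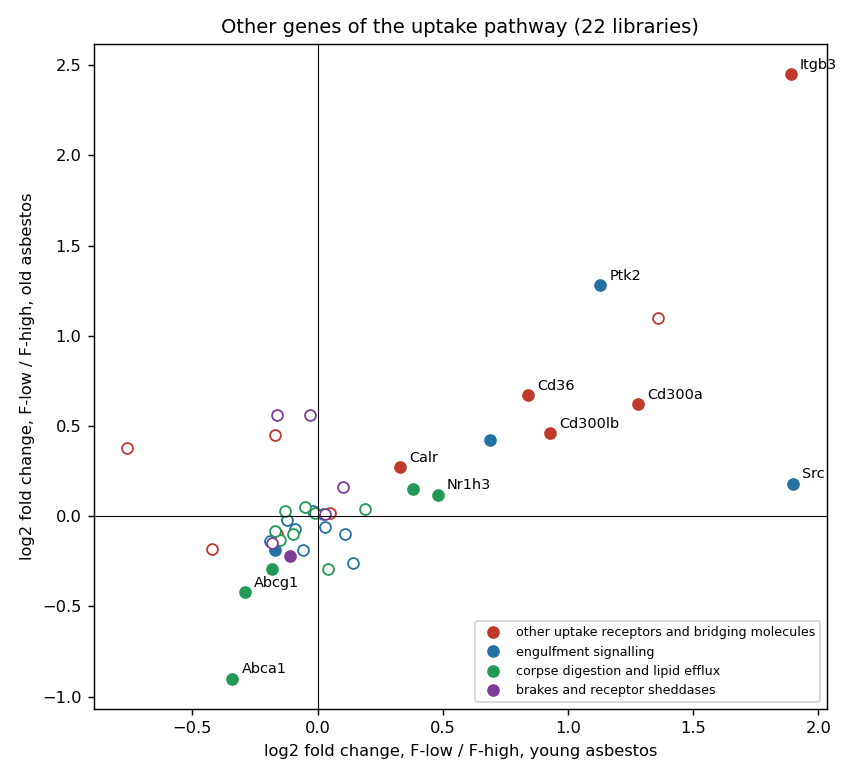
Log2 fold change of F-low against F-high in young (horizontal axis) and old mice (vertical axis) for the 43 tested genes of the 4 pathway lists with 22 libraries, filled where called in at least 1 age. Itgb3 lies at 1.89 and 2.45, Abca1 at -0.34 and -0.90, and Src is higher in young mice at 1.90 with 0.18 in old mice.

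Across the 22 libraries, the genes whose log2 CPM was most like that of Mfge8 by Pearson's r were Anpep (0.990), Rnf128 (0.986), Slc6a8 (0.986), Ctsk (0.984) and Igf1 (0.983). Anpep, which encodes aminopeptidase N, lies on chromosome 7 from 79821803 to 79861059 and had group means of 5.85, 17.8, 43.4, 86.4, 225 and 326 CPM in the order of groups used above. Ctsk, the collagen-degrading cathepsin K, had 384, 557, 1052, 1391, 2619 and 2747 CPM, and Igf1, a growth factor, 16.3, 33.5, 64.5, 114, 187 and 233 CPM. For Axl the most similar were Lima1 (0.945), Ptk2b (0.945), Hhex (0.937), Aplp2 (0.935) and Pdgfc (0.935). Among the 10 genes themselves, Mfge8 had an r of 0.736 with Gas6, -0.766 with Axl and -0.775 with Pros1, and Gas6 had an r of 0.778 with Stab1 and -0.863 with Axl. Over 24 libraries the first 3 were 0.715, -0.409 and -0.666, and the other 2 were 0.684 and -0.601. These values describe libraries that share 6 groups, so they follow the differences between groups, and the counts of Timd4 were too sparse for such a ranking to be read (highest r 0.694).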

How the data were processed

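Poly(A)-enriched RNA from sorted macrophages was sequenced, per the labels' protocols. Reads were processed with bcl2fastq 2.19.1, FastQC, Trimmomatic 0.36, STAR 2.6.0 and HTSeq 0.11.2 on mm10, per the submitters' processing notes, and the authors deposited whole-number read counts per gene in 1 table. The annotation and strand setting are not given in the sources used here. Symbols, positions and exon lengths were taken from GENCODE M21, and 42462 of 43430 genes matched a symbol.

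The counts of the whole table were fitted in edgeR 4.0.16 (R 4.3.3) with filterByExpr (minimum count 10, minimum total 15), TMM scaling, 1 term per group and its quasi-likelihood test, with p-values adjusted by Benjamini and Hochberg's method; the procedure was tested on simulated data. All 10 genes passed the filter. DESeq2 1.42.0, other scalings and filters, a replicate block and leaving out libraries were alternatives. The 2 outlying libraries were known from an earlier analysis, and the genes and lists were chosen with earlier results of these data known. 1 marker of the monocyte-derived list is not reported here. Named genes of the pathway were the 3 higher and 3 lower called genes of smallest p with 22 libraries in each comparison, others being named after their values were seen; for likeness, the 5 genes of highest r with Mfge8, with the most abundant gene and with Timd4 were taken. Promoter windows came from RefSeq on GRCm38.p6, where all 10 genes matched.

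The labels do not say that replicate numbers mark animals. Same-numbered libraries of the old asbestos sorts deviated together with an r of 0.0733 to 0.186 over 24 libraries and 0.150 to 0.205 over 22, and those of the young sorts with -0.180 to 0.245 and 0.0854 to 0.319. In the old sorts with 22 libraries every pair was above 0.1, and the block changed no call of the 10 genes there.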

Additional observations from a re-analysis of the deposited data

Results flagged for a closer look

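Within the 60 sets of 4 libraries examined (10 genes in 6 groups), 3 held a library far from the other 3 by Dixon's criterion, which chance alone gives in about 1 in 20 sets. Gas6 was at 2.71 CPM in young asbestos F-high replicate 3, against 1.07 to 1.25 CPM in the others. Itgb5 was at 145 CPM in the same library, against 237 to 253 CPM. This library is the one with the fewest detected genes, 12528, and the part of that in these values was not tested. Axl was at 2406 CPM in young naive replicate 1, against 2084 to 2119 CPM in the others.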

How the results depend on the processing

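For 9 of the 10 genes, leaving out Timd4 for its low counts, of 4374 values of a gene in a comparison under an alternative, 4296 stayed on their side of the threshold, 44 lost a call, 34 gained one, and no called value changed direction. The outlying pair moved the counts most. With 22 libraries, 2 of the 10 genes were called between old and young naive F-high cells, 2 in asbestos F-high and 1 in F-low cells, and 5 in young and 5 in old mice between F-low and F-high cells, against 1, 1, 0, 2 and 3 with 24. With only the libraries of the compared groups, the counts were 2, 0 and 1 for the age comparisons and 1 for F-low against F-high in young mice. Leaving out each of the 24 libraries in turn gave 1 to 1, 1 to 2 and 0 to 1 for the age comparisons, 1 to 1 for asbestos in either age, 1 to 4 and 2 to 5 for F-low against F-high in young and old mice, and 0 to 0 for both interactions. The highest counts came without young asbestos F-high replicate 3. Leave-one-out among the 22 libraries, chosen after seeing the data, gave 1 to 2, 1 to 2, 1 to 1, 1 to 1, 1 to 1, 3 to 5, 4 to 5, 0 to 0 and 0 to 0.

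The replicate block with 22 libraries gave 2, 2 and 1 calls for the age comparisons and 6 and 5 for F-low against F-high in young and old mice. The added call was Elmo1 in young mice (adjusted p = 0.0304 in edgeR, against 0.0977 without the block), and the block changed no other call among the 10 genes with 22 libraries.

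Over all genes, calls with 24 libraries, with 22, with the block and 22, and with DESeq2 were 273, 1094, 1476 and 474 for age in naive F-high; 641, 997, 1347 and 1432 in asbestos F-high; and 174, 983, 1240 and 358 in F-low cells. They were 256, 690, 889 and 594 for asbestos in young and 105, 562, 725 and 248 in old mice; 672, 1638, 2440 and 1133 for F-low against F-high in young and 579, 1578, 1954 and 924 in old mice; 0, 2, 2 and 0 for the first interaction and 0, 2, 14 and 6 for the second. With the compared groups alone they were 685, 17 and 798 for age, 10 and 51 for asbestos in young and old mice, and 181 for F-low against F-high in young mice. The cause was not tested. Timd4 had 0 to 21 counts per library, so differences in it were not detectable.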
